A study of Mus musculus with 15 samples.

Results

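Oxidative phosphorylation is carried out in the inner mitochondrial membrane by 4 respiratory complexes, numbered I to IV, and by ATP synthase, here complex V. Complexes I, III and IV pump protons as electrons pass from NADH or succinate to oxygen, and ATP synthase uses the returning protons to make ATP. Complex II, succinate dehydrogenase, feeds electrons in without pumping and is encoded in the nucleus alone, whereas the other complexes combine nuclear subunits with a few that the mitochondrial genome encodes. In the small intestine the absorbing enterocytes and the dividing cells of the crypt both hold mitochondria, as do the muscle, nerve, vessel and immune cells of the gut wall.

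The genes described here are nuclear genes of these complexes. They were taken as every row of the deposited table whose symbol begins with Nduf, Uqcr, Atp5, Cox4, Cox5, Cox6, Cox7 or Cox8. Sdha, Sdhb, Sdhc and Sdhd were added. The rule found 95 of the 25329 rows: 48 of complex I, 4 of complex II, 8 of complex III, 18 of complex IV and 17 of ATP synthase. Not every one is a subunit, and the rule misses Cyc1, a nuclear gene of complex III that is given apart below. The Nduf prefix also takes in 8 assembly factors of complex I, Ndufaf1 to Ndufaf8, which help to build the complex but are not part of it. It takes in 3 further copies of subunit genes as well, Ndufb4b, Ndufb4c and Ndufs6b. Ndufa4 and Ndufa4l2 carry a complex I name and are placed with complex IV, because the Ndufa4 protein is found there.

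Bulk RNA sequencing of whole ileum compared 3 groups of mice with 5 libraries each. WT mice carried floxed Tak1 (Tak1f/f), HO mice had lost TAK1, an inflammatory signalling kinase, in intestinal epithelial cells (TAK1 IEC-KO), and DHO mice had the same loss together with Ripk1 D138N/D138N, an allele without RIPK1 kinase activity. By the labels' protocol all groups received 3 daily intraperitoneal doses of 80 mg/kg tamoxifen in corn oil and ethanol, and these samples were taken 3 days after induction. The sources used here do not name the Cre driver, and the tissue includes all cells of the gut wall, not the deleted cells alone. The study asked what RIPK1 kinase does in the ileitis of mice without epithelial TAK1.

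Levels are in FPKM, which divides reads by gene length and by the reads of the library, and a change is the difference between mean log2(FPKM + 1) values of 2 groups. Depths ran from 38724618 to 40589889 reads. Map3k7, the gene of TAK1, had a mean of 10.4 ± 0.803 FPKM in WT, of 8.66 ± 1.04 in HO and of 9.23 ± 0.71 in DHO (SD, n = 5), counted over the whole gene. It was called lower in HO (log2 change -0.24, limma adjusted p = 0.0419) and not in DHO against WT (-0.15, adjusted p = 0.962). HO 1, DHO 3 and DHO 4 held Gata4, a gene of the proximal small intestine, at 27.3, 19.04 and 18.04 FPKM against no more than 0.529 in the other 12 libraries. Slc25a48, another of the 4 proximal genes listed, was lower there, at 0, 4.55 and 4.13 FPKM against 8.89 to 33.9. Fabp6, a bile acid binding protein of the distal ileum, was at 6935 to 11847 FPKM in WT and at 7181 to 9781 in DHO. In HO 1 to HO 5 it was at 0.0491, 1356, 4089, 3359 and 12973 FPKM, so that HO 1 to HO 4 lay below all WT and DHO libraries. HO 2, HO 4 and DHO 1 held more of Ms4a1, a B cell gene, at 8.8, 15.6 and 7.04 FPKM against no more than 0.286 in the other libraries. Values without either set are given for calls lost without it, for respiratory genes within the naming rule given below, and for some counts.

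Promoters show what the genes share in sequence. RefSeq promoter windows on GRCm38.p6, each 300 bases long, were matched for 77 of the 95 genes, and 4 short motifs of factors known to act on respiratory genes were searched on both strands. The NRF1 palindrome, GCGC and TGCGC with any 1 base between them, was in the window of 19 of the 77 genes, 24.7%, against 5.19% of all 27025 genes with a window. The core of the ETS sites that GABP binds (CCGGAAG) was also in 19, 24.7%, against 9.93%. The YY1 core (AAGATGGC) was in 11, 14.3%, against 3.19%, and the site of the estrogen-related receptors (TCAAGGTCA) in 2, 2.6%, against 0.466%. A match is a description of letters and not a measured site. Genes with no window in the table included Ndufa4l2, Ndufb4c, Ndufs6b, Ndufs1, Ndufa2, Ndufb9, Ndufaf6, Sdhc, Uqcrb, Uqcrc2, Uqcrq, Cox4i1, Cox4i2, Cox6a2, Cox6c, Atp5a1 and Atp5mpl. The next 5 stretches, 110 bases before to 30 after the annotated start, belong to the gene of each complex that fell most in HO among those with a motif, which is in capitals. All lie on the minus strand and are printed 5′ to 3′.

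Ndufs8, chr19:3912745-3912884, ETS core on the opposite strand: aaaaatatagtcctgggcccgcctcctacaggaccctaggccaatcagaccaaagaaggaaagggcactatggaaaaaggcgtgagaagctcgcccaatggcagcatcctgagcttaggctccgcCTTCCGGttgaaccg
Sdha, chr13:74350211-74350350, 3 NRF1 palindromes on the opposite strand: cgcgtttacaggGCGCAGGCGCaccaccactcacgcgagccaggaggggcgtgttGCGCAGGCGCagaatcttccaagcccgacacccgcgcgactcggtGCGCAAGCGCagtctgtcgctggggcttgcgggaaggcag
Uqcr11, chr10:80406792-80406931, ETS core: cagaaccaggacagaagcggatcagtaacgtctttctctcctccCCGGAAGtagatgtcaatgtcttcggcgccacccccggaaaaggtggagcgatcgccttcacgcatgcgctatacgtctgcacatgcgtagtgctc
Cox6b1, chr7:30626085-30626224, ETS core on the opposite strand: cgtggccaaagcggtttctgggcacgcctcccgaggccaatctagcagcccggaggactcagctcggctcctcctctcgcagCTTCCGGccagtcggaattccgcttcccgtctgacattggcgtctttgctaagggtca
Atp5g2, chr15:102671018-102671157, NRF1 palindrome: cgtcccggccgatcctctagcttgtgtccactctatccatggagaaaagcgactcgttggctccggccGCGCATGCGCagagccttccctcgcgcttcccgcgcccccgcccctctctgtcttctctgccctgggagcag

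The windows of the 2 genes that rose in HO held none of the 4 motifs, which says only that these letters are not in them. The same stretch of each is shown for comparison, also from the minus strand.

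Cox6b2, chr7:4753065-4753204: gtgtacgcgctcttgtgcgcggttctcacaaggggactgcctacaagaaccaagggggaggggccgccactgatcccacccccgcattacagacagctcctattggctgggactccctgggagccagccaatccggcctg
Cox8b, chr7:140900417-140900556: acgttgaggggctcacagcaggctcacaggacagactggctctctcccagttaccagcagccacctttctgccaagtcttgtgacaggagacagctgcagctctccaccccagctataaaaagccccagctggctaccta

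In WT ileum the levels of these genes spanned a wide range. Together they made up 1.67% ± 0.0719 of the reads (SD, n = 5), and 54 of the 95 had a WT mean of at least 100 FPKM. The most abundant was Atp5b, the catalytic beta subunit of ATP synthase, at 863 ± 72.5 FPKM, followed by Cox4i1, the complex IV subunit IV found in most tissues, at 789 ± 23.8. Cox6c, a small complex IV subunit, stood at 735 ± 41.8 and Atp5j2, a membrane subunit of ATP synthase, at 701 ± 42.3. At the other end, 4 genes did not reach 1 FPKM in 5 libraries and were not tested. Cox4i2, the lung isoform of subunit IV, had a WT mean of 0.643 FPKM, and Ndufa4l2, a paralog known for its induction in low oxygen, had 0.524. Cox6a2, the heart and muscle isoform of subunit VIa, had 0.0232, and Ndufb4c, a copy of Ndufb4, had 0.755. The tested set of 91 genes is therefore not the whole set.

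In HO ileum the set as a whole was lower. Of the 91 genes tested against WT, 85 were called lower at an adjusted p under 0.05, 2 were called higher and 4 were not called. Of all 11332 genes tested, 42.9% were called lower and 12.4% higher. The median change of the 91 genes was -0.59 on the log2 scale, against -0.25 for all genes tested. The 95 genes summed to 18079 ± 681 FPKM in WT and to 12331 ± 2287 in HO, 68.2% of the WT mean. All HO libraries were below all WT libraries for 65 of the 91 genes, as they were for 29.8% of all genes. In whole tissue, fewer cells that express these genes and less RNA of them per cell cannot be told apart.

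The size of that difference depends on how the libraries are scaled. FPKM divides by total reads, and the median of all genes lay below 0. With libraries scaled by the median of gene ratios instead, the all-gene median moved to 0.01 and the median of the 91 genes to -0.28. On that scale 28 of the 91 genes were called lower, 30.8%, against 23.3% of all genes, and the same 2 were called higher. Calls over all genes shifted likewise, from 4867 lower and 1406 higher to 2640 lower and 2804 higher. Quantile normalization lay between, with 68 of the 91 genes called lower and 2 higher, and 3154 lower and 2505 higher over all genes. Of the 85 genes called lower, 2 had a positive change on the median-of-ratios scale, Ndufa2 (0.01) and Ndufa7 (0.09). Changes below are on the FPKM scale, where a change of -0.25 equals the all-gene median.

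**Figure D1:**
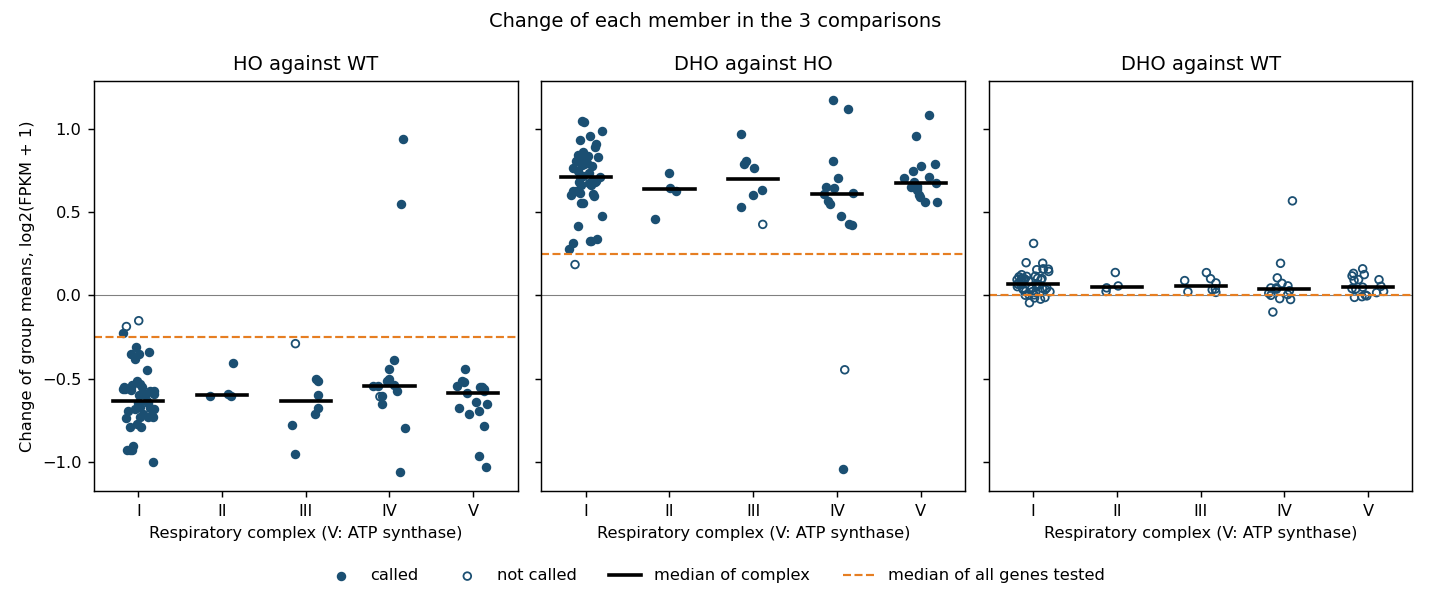
Change of each of the 91 tested genes on the log2(FPKM + 1) scale, by respiratory complex and comparison; filled points were called at a limma adjusted p under 0.05, black bars are the median of a complex and the dashed line is the median of all 11332 genes tested. Most points lie below the dashed line where HO is set against WT and above it where DHO is set against HO, and no point is filled in DHO against WT.

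Complex I oxidises NADH. Of its 47 genes tested 45 were called lower in HO, with a median change of -0.63, and their summed level was 68.9% of the WT mean. With median-of-ratios scaling 17 of the 47 were called lower, where 23.3% of all genes were. All 7 core subunits tested fell. Ndufs8, which holds iron-sulfur clusters of the electron path and whose promoter is printed above, had 69.2, 71.1, 89.8, 88.3 and 72.2 FPKM in WT 1 to WT 5 and 45.4, 25.3, 48.3, 38.5 and 49.5 in HO 1 to HO 5. In DHO 1 to DHO 5 it had 66.3, 72.5, 78.4, 80.8 and 85.7 FPKM. Every HO library lay below every WT and DHO library, and the change in HO was -0.93 (SE 0.16, limma adjusted p = 0.000222). Ndufs7, another iron-sulfur subunit, changed by -0.79 (adjusted p = 0.000772) and Ndufs1, the largest subunit, by -0.72 (adjusted p = 0.000396). Ndufv2, next to the site of NADH oxidation, changed by -0.60 (adjusted p = 0.000265). Ndufv1, which binds NADH and flavin, changed by -0.57 (adjusted p = 0.012), but HO and WT libraries overlapped.

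Among the 30 accessory subunits of complex I, 28 were called lower. The largest fall was that of Ndufa10, at 60.9, 63.3, 68.2, 64.2 and 56.3 FPKM in WT and 40.8, 17, 37, 23.1 and 46 in HO. HO 2 and HO 4 were the lowest libraries, the groups did not overlap, and the change was -0.998 (SE 0.20, limma adjusted p = 0.000861). Ndufb5 changed by -0.93 (SE 0.13, adjusted p = 5.43e-05) and Ndufs4, an accessory subunit whose loss in mice causes a severe complex I deficiency, by -0.51 (SE 0.09, adjusted p = 0.000339). Ndufb3 changed by -0.59 (adjusted p = 0.0047) and Ndufb4 by -0.67 (adjusted p = 0.000153). The 2 accessory subunits that were not called were Ndufa11, at -0.19 (adjusted p = 0.0936), and Ndufa1, at -0.15 (adjusted p = 0.238). Ndufa1 stood at 104, 120, 105, 115 and 109 FPKM in WT and at 132, 83.0, 94.8, 94.0 and 97.9 in HO, so that 4 HO libraries lay below WT and HO 1 above it.

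The 8 assembly factors of complex I were all called lower, with a median of -0.71, and all 8 had no overlap between HO and WT. Ndufaf2, which acts late in assembly, was even within groups: 10.9, 10.9, 12.3, 12.6 and 9.98 FPKM in WT, 5.37, 5.04, 5.86, 5.34 and 5.77 in HO, and 10.1, 11.6, 10.8, 11.6 and 12.8 in DHO. Its change of -0.93 in HO had an SE of 0.09 (limma adjusted p = 2.33e-06). Ndufaf7, a methyltransferase, changed by -0.79 (SE 0.14, adjusted p = 0.000363). On the median-of-ratios scale 6 of the 8 were still called. The copies Ndufs6b and Ndufb4b, at 5.82 and 1.77 FPKM in WT, were also called lower (-0.68, adjusted p = 0.0154, and -0.57, adjusted p = 0.0251), with overlap between the groups. Their reads may be shared with the parent genes Ndufs6 and Ndufb4, so their values are uncertain. The call of Ndufb4b was not kept in every fit that left out a single library.

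The 4 subunits of complex II were all called lower in HO, and none was called on the median-of-ratios scale. Sdha, the flavoprotein that oxidises succinate, stood at 140, 152, 159, 154 and 139 FPKM in WT and at 135, 67.9, 95, 83.2 and 121 in HO, a change of -0.60 (SE 0.15, limma adjusted p = 0.00322). HO 1 lay just below the lowest WT library. Sdhb, the iron-sulfur subunit, fell from 223 ± 20.4 to 149 ± 33.5 FPKM (-0.60, adjusted p = 0.0014). Sdhd, a membrane anchor, had 213, 232, 205, 190 and 184 FPKM in WT and 231, 101, 131, 89.0 and 164 in HO. HO 1 was close to the highest WT library, and the change of -0.59 (adjusted p = 0.0267) was no longer called without HO 2 (-0.49, adjusted p = 0.0724), without HO 4 (-0.45, adjusted p = 0.0737) or without WT 2 (-0.55, adjusted p = 0.0597). It was -0.26 (adjusted p = 0.267) without HO 2, HO 4 and DHO 1 together. Sdhc, the other anchor, changed by -0.40 (adjusted p = 0.0395) and was not called when any WT library, HO 2, HO 3 or HO 4 was left out, with values from -0.42 to -0.28. It was -0.15 (adjusted p = 0.359) without HO 2, HO 4 and DHO 1 together.

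Complex III passes electrons from ubiquinol to cytochrome c. Of its 8 genes under the rule 7 were called lower, with a median of -0.63, and these 7 did not overlap between HO and WT. With median-of-ratios scaling 3 of the 8 were called lower, where 23.3% of all genes were. Uqcr11, a small subunit, fell most: its levels were 246, 236, 266, 254 and 226 FPKM in the WT libraries, 158, 83.7, 157, 107 and 145 in HO libraries and 229, 256, 246, 268 and 245 in DHO. The change in HO was -0.95 (SE 0.15, limma adjusted p = 0.000113). Uqcrc2, a core protein, changed by -0.77 (adjusted p = 0.000843), Uqcrh, the hinge protein, by -0.67 (adjusted p = 6.28e-05), Uqcrfs1, the Rieske iron-sulfur protein, by -0.59 (adjusted p = 0.00162) and Uqcrb by -0.50 (adjusted p = 0.00045).

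Uqcrc1, the other core protein of complex III, was the exception. It had 196, 203, 222, 211 and 189 FPKM in WT but 312, 97.8, 172, 130 and 188 in HO. HO 1, a library with proximal transcripts, was above all WT libraries and the other 4 were below them. Its difference was -0.29 (SE 0.22, limma adjusted p = 0.273) with all libraries, -0.51 (adjusted p = 0.0130) without HO 1 and 0.08 (adjusted p = 0.700) without HO 2, HO 4 and DHO 1. On the median-of-ratios scale it was 0.03.

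Complex IV, cytochrome c oxidase, reduces oxygen. Among its nuclear subunits found in most tissues, 11 of 11 were called lower in HO, from -0.38 for Cox6a1 to -0.80 for Cox7b. With median-of-ratios scaling 2 of these 11 were called lower, where 23.3% of all genes were. Cox4i1 stood at 760, 807, 819, 776 and 782 FPKM in WT and at 673, 451, 599, 481 and 749 in HO. HO 5 came close to WT without overlap, HO 2 and HO 4 were far below, and the change was -0.44 (SE 0.12, limma adjusted p = 0.00661). Without HO 2, HO 4 and DHO 1 it was -0.23 (adjusted p = 0.0619). Cox6c changed by -0.65 (SE 0.09, adjusted p = 4.1e-05), Cox5a by -0.60 (adjusted p = 0.0048) and Cox6b1 by -0.57 (adjusted p = 0.00451). Cox5b and Cox7c changed by -0.55 and -0.54, Cox7a2 by -0.54 and Cox8a by -0.50. Ndufa4 changed by -0.51 (adjusted p = 0.00813), with HO 1 inside the WT range at 430 FPKM. The call of Cox6a1 (adjusted p = 0.0257) was lost without HO 2 (-0.28, adjusted p = 0.0674), without HO 4 (-0.31, adjusted p = 0.0698) or without WT 3 (-0.37, adjusted p = 0.0526).

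The largest fall of all 91 genes was that of Cox7a2l, a relative of the Cox7a subunits that joins complexes III and IV into supercomplexes. It had 95.3, 99.9, 116, 124 and 102 FPKM in WT, 51.1, 45.7, 48.9, 56.4 and 52.2 in HO, and 117, 127, 96.6, 98.4 and 121 in DHO. HO libraries were tightly grouped, with HO 1 as low as the others, and every one was below every WT and DHO library. The change in HO was -1.06 (SE 0.10, limma adjusted p = 3.16e-06), and it was -0.75 on the median-of-ratios scale (adjusted p = 1.07e-05).

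ATP synthase genes were called lower in 17 of 17, with a median of -0.59 and a summed level at 66.4% of the WT mean. With median-of-ratios scaling 5 of the 17 were called lower, where 23.3% of all genes were. Atp5b stood at 824, 824, 951, 928 and 785 FPKM in WT and at 771, 416, 670, 510 and 656 in HO, and changed by -0.54 (SE 0.14, limma adjusted p = 0.00473). Its partner in the catalytic head, Atp5a1, changed by -0.64 (adjusted p = 0.0037), and Atp5c1, the rotating gamma shaft, by -0.69 (adjusted p = 0.00065). Atp5o and Atp5h, parts of the stalk that holds the head in place, changed by -0.59 (adjusted p = 0.00306) and -0.55 (adjusted p = 0.000844). Of the 9 genes of head and stalk, all 9 had HO below WT without overlap.

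The c-ring, the rotor that protons turn, is built from 1 protein made by 3 genes that differ in their targeting peptides, and these genes moved unequally. Atp5g1 had 125, 134, 128, 122 and 112 FPKM in WT and 95.5, 30.4, 78.3, 42.6 and 81.5 in HO, a change of -1.03 (SE 0.24, limma adjusted p = 0.00217). Atp5g2 had 147, 142, 150, 148 and 128 FPKM in WT and 74.1, 49.3, 80.2, 70.1 and 99.2 in HO, a change of -0.96 (SE 0.14, adjusted p = 5.22e-05). Both were lower in every HO library than in any WT library, with HO 2 lowest. Atp5g3, the most abundant at 377 ± 16.6 FPKM in WT, had 385, 207, 282, 199 and 364 in HO, so that HO 1 and HO 5 reached the WT range. It changed by -0.44 (adjusted p = 0.0358) and was not called when any WT library, HO 2, HO 3 or HO 4 was left out, with values from -0.45 to -0.32. Leaving out HO 2, HO 4 and DHO 1 together gave -0.14 (adjusted p = 0.371). The differences between the 3 genes were not tested.

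**Figure D2:**
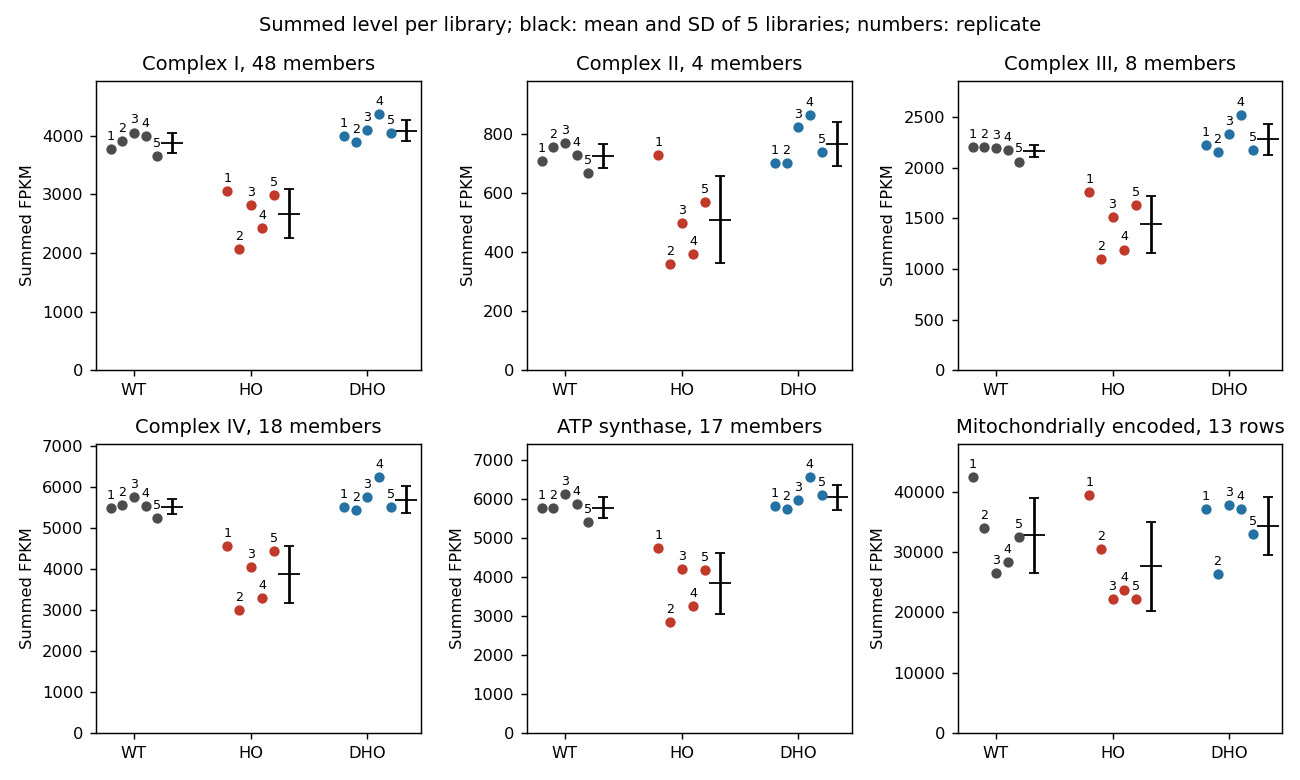
Summed FPKM of the genes of each complex and of the 13 mitochondrially encoded subunits in every library, with mean and SD of 5 libraries per group in black. HO libraries lie below WT and DHO libraries for complexes I, III, IV and ATP synthase, HO 1 reaches the WT range for complex II (728 FPKM), and the groups overlap for the mitochondrially encoded subunits.

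Within HO the 5 libraries differed in degree. The median gene stood at 78.2% of its WT mean in HO 1, 48% in HO 2, 71.1% in HO 3, 56.1% in HO 4 and 74.7% in HO 5, while WT libraries ranged from 93.3% to 105% and DHO libraries from 98.9% to 113%. HO 2 was the lowest HO library for 79 of the 91 genes and HO 1 the highest for 42. HO 2 and HO 4, the libraries with most Ms4a1, had the lowest levels of respiratory genes, and DHO 1, which also held Ms4a1, stood at 101% of the WT mean for the median gene. Without HO 2, HO 4 and DHO 1, 71 genes were called lower and none higher, with a median of -0.41, where 35.6% of all genes were called lower. Calls lost without them, other than those given beside the gene, are listed only for genes within the naming rule given below. They were those of Ndufv1 (-0.26, limma adjusted p = 0.0665), Ndufb3 (-0.38, adjusted p = 0.0573), Ndufs6b (-0.43, adjusted p = 0.154), Ndufa4 (-0.30, adjusted p = 0.0808) and Cox6a1 (-0.14, adjusted p = 0.252). Without HO 1, DHO 3 and DHO 4, 86 were called lower and 2 higher, with a median of -0.67, where 41.6% of all genes were called lower and 15.6% higher.

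**Figure D3:**
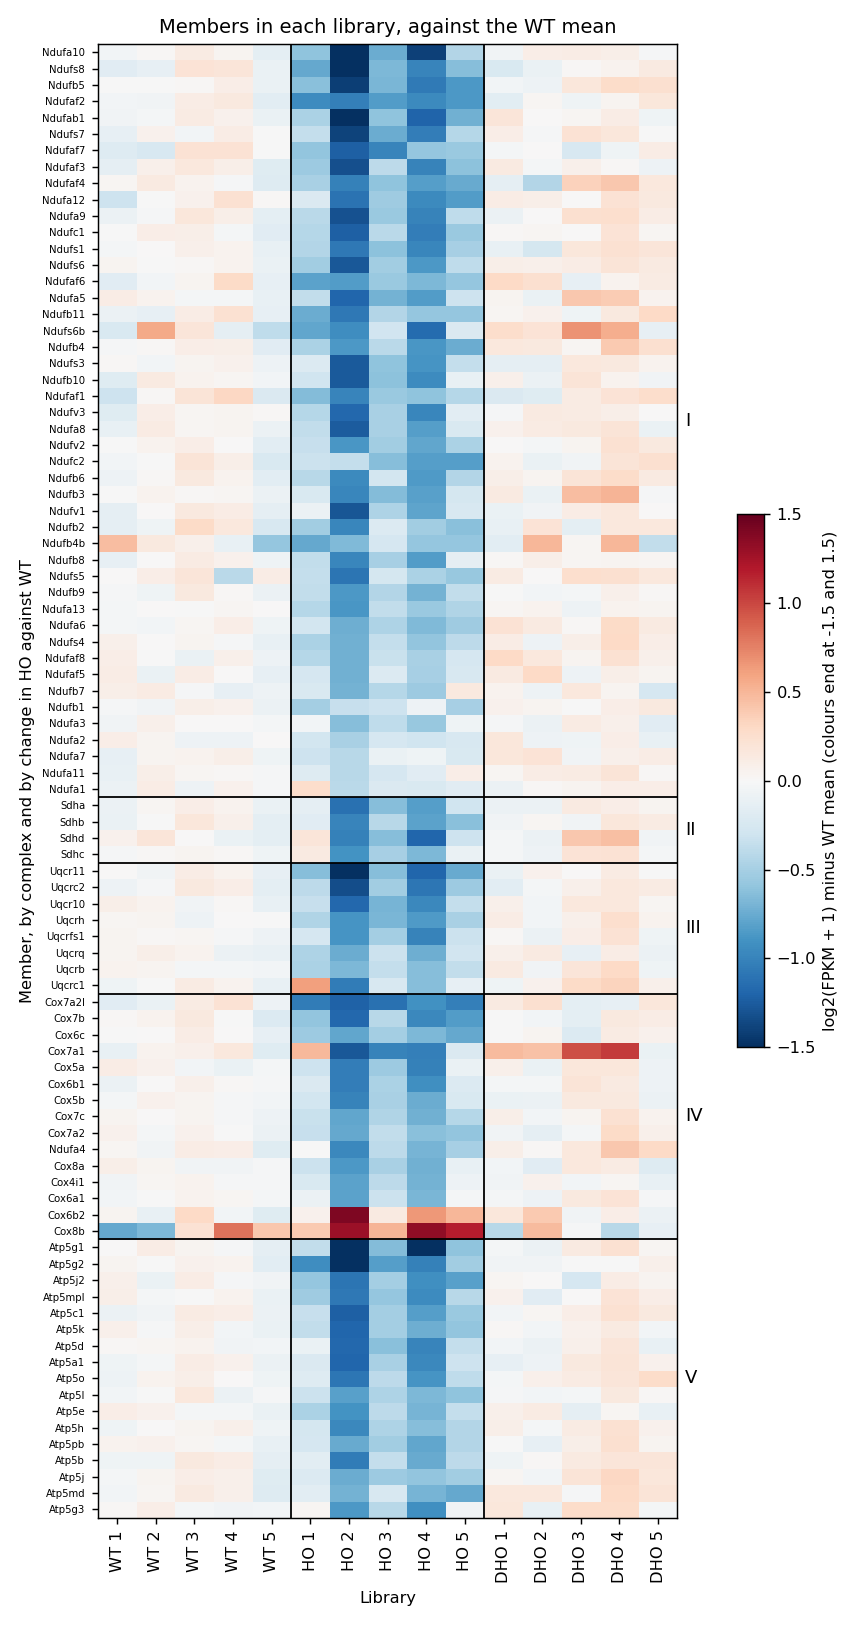
The tested genes, except 1 not reported here, in each of the 15 libraries as log2(FPKM + 1) minus its WT mean, ordered by complex and by change in HO. The HO columns are blue for most genes, darkest in HO 2 and HO 4, and red for Cox6b2 and Cox8b. Cox7a1 is red in HO 1 and in DHO 1 to DHO 4, most strongly in DHO 3 and DHO 4.

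Of the 3 tissue isoforms of complex IV that were tested, 2 were called higher in HO and 1, Cox7a1, was not called. Cox6b2, the testis isoform of subunit VIb, was called higher in HO. It had 13.5, 12.0, 16.3, 12.7 and 11.4 FPKM in WT, 13.8, 36.1, 14.5, 21.2 and 19.0 in HO, and 14.9, 17.5, 12.6, 14.1 and 12.2 in DHO. HO 2 stood highest, HO 1 and HO 3 lay within the WT range, and the change was 0.55 (SE 0.20, limma adjusted p = 0.0306). Its call was lost without HO 2 (0.34, adjusted p = 0.0598), HO 4 (0.53, adjusted p = 0.0586), WT 2 (0.52, adjusted p = 0.0619), WT 4 (0.54, adjusted p = 0.0544) or WT 5 (0.51, adjusted p = 0.0659).

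Cox8b, the heart and muscle isoform of subunit VIII, was the other gene called higher. Its levels were low, at 0, 0.0711, 0.980, 2.00 and 1.25 FPKM in WT, 1.24, 3.15, 1.43, 3.27 and 2.86 in HO, and 0.280, 1.36, 0.685, 0.275 and 0.564 in DHO. It reached 1 FPKM in all HO libraries but only in WT 4, WT 5 and DHO 2 elsewhere, so it was tested because of its level in HO. WT and HO overlapped, and the change of 0.94 (SE 0.30, limma adjusted p = 0.0155) had HO 2, HO 4 and HO 5 as its highest libraries. Without HO 2, HO 4 and DHO 1 the change was 0.69 (adjusted p = 0.129), and that of Cox6b2 was 0.23 (adjusted p = 0.209). Markers of striated muscle, where Cox8b is best known, had a summed level of 27.3 to 92.2 FPKM in WT and 3.96 to 18.7 in HO. Of the 2 of these 6 genes tested, Acta1 was called lower, with means of 51.9 and 4.51 FPKM, and Ckm was not called, with 4.16 and 6.93. The 3 brown fat genes, none of them tested, summed to 0.0362 to 0.482 FPKM in WT and 0.527 to 1.29 in HO, with Ucp1 at 0 in all WT and DHO libraries. The part of these cells in the change of Cox8b was not tested.

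Cox7a1, the muscle isoform of subunit VIIa, followed another order. It had 66.1, 74.2, 75.6, 79.9 and 62.6 FPKM in WT, 101, 28.9, 35.1, 34.7 and 61.1 in HO, and 99.6, 96.8, 141, 149 and 66.8 in DHO. The 3 libraries with proximal transcripts were the highest of all libraries, and 4 HO libraries lay below WT. Its difference in HO was -0.61 (SE 0.29, limma adjusted p = 0.0865) with all libraries and -0.88 (adjusted p = 0.00515) without HO 1. Its common counterpart Cox7a2 had 282 ± 12.9 FPKM in WT and 194 ± 24.4 in HO, with no overlap.

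**Figure D4:**
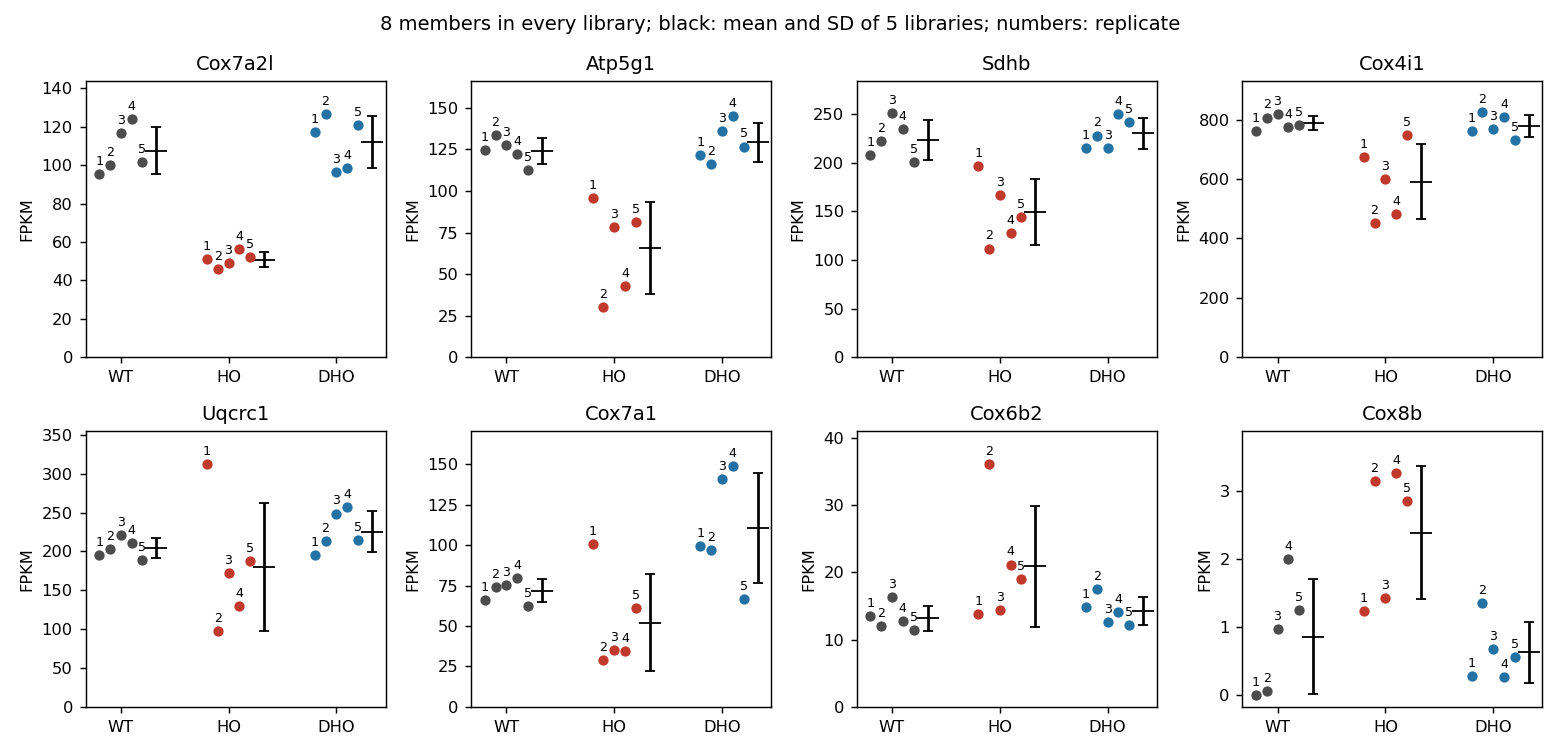
FPKM of 8 genes in every library, with mean and SD of 5 libraries per group in black and the replicate number above each point. Cox7a2l, Atp5g1, Sdhb and Cox4i1 are lower in all HO libraries than in all WT libraries, whereas HO 1 is the highest HO library of Uqcrc1 and Cox7a1 and HO 2 or HO 4 that of Cox6b2 and Cox8b.

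In DHO ileum, where RIPK1 lacks kinase activity, the set was higher than in HO. Of the 91 genes 87 were called higher, 1 was called lower and 3 were not called, while of all genes tested 42.8% were called higher and 13.4% lower. The median change was 0.68, against 0.25 for all genes, and all DHO libraries were above all HO libraries for 73 genes, as for 27.9% of all genes. On the median-of-ratios scale 46 were called higher, 50.5% against 24.7% of all genes, and 2 lower, with a median of 0.36, and Ndufa2 and Ndufa11 turned negative. Calls over all genes moved with it, from 4846 higher and 1513 lower to 2797 higher and 2934 lower. With quantile normalization 77 of the 91 genes were called higher and 2 lower, and 3308 higher and 2595 lower over all genes. Both comparisons use the same HO libraries, so a low HO value enters each, and their agreement in direction is not separate evidence.

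By complex, 46 of 47 genes of complex I were called higher in DHO than in HO, as were 4 of 4 of complex II, 7 of 8 of complex III, 13 of 15 of complex IV and 17 of 17 of ATP synthase. Of all genes tested 42.8% were. With median-of-ratios scaling the numbers were 29 of 47, 0 of 4, 4 of 8, 4 of 15 and 9 of 17 in the same order. That scaling had 24.7% of all genes called higher. Cox7a2l rose by 1.12 (SE 0.10, limma adjusted p = 2.14e-06), Ndufaf2 by 0.93 (SE 0.09, adjusted p = 2.14e-06), Ndufb5 by 1.04 (SE 0.13, adjusted p = 2.06e-05) and Ndufa10 by 1.04 (SE 0.20, adjusted p = 0.000565). Atp5g1 rose by 1.08 (SE 0.24, adjusted p = 0.00141) and Uqcr11 by 0.97 (SE 0.15, adjusted p = 9.22e-05). Cox7a1 had the largest rise of all, 1.17 (SE 0.29, adjusted p = 0.00317), with overlap between the groups. It was 0.84 (adjusted p = 0.0563) without HO 2, HO 4 and DHO 1. The calls of Sdhd (0.44, adjusted p = 0.0853), Sdhc (0.23, adjusted p = 0.194), Cox4i1 (0.22, adjusted p = 0.0889), Cox8a (0.29, adjusted p = 0.0769), Cox6a1 (0.21, adjusted p = 0.126) and Atp5g3 (0.25, adjusted p = 0.155) were also lost without these 3 libraries.

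The gene called lower in DHO than in HO was Cox8b (-1.04, SE 0.30, limma adjusted p = 0.00841), and without HO 2, HO 4 and DHO 1 it was not called (-0.72, adjusted p = 0.141). Cox8b was tested because of its level in HO, so this call only describes that level. Cox6b2 was not called (-0.45, adjusted p = 0.0711), and it was called without HO 1 (-0.57, adjusted p = 0.0237) or without HO 3 (-0.55, adjusted p = 0.0350). Uqcrc1 was not called with all libraries (0.43, adjusted p = 0.108) and was called without HO 1 (0.65, adjusted p = 0.0030). Ndufa1 was not called (0.19, adjusted p = 0.150). Sdhc, at 0.46 (adjusted p = 0.0207), was not called without HO 2 (0.34, adjusted p = 0.0555) or HO 4 (0.39, adjusted p = 0.0552).

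No respiratory gene was called between DHO and WT. Of the 91 genes none was called lower, where 0.159% of all genes were, and none higher, where 0.0794% of all genes were. None passed an unadjusted p under 0.05 in limma on FPKM or in limma-voom on recovered reads, and none was called in either. The median change was 0.06, with 81 genes above 0 and 10 below, against 0.00 for all genes, and single genes ranged from -0.10 for Cox8b to 0.57 for Cox7a1. The typical 95% interval of a gene, given by the median of its bounds, ran from -0.23 to 0.35, which leaves changes of that size possible. The fit gives each gene 1 estimate of spread over the 3 groups, which can widen these intervals. HO varied most, with an SD of the summed level of 2287 FPKM against 681 in WT and 1026 in DHO. In a fit of DHO and WT alone none of the 91 genes was called, where 0.838% of all genes were called lower and 0.803% higher. Ndufs6 was not called, though all its DHO libraries (120 to 131 FPKM) lay above all its WT libraries (107 to 118 FPKM). The 95 genes summed to 18873 ± 1026 FPKM in DHO, 104% of the WT mean. The highest DHO libraries were DHO 3 and DHO 4, at 106% and 113% for the median gene, which are those with proximal transcripts.

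The mitochondrial genome encodes 13 further protein subunits of these complexes, and their levels did not separate the groups. They summed to 32813 ± 6232 FPKM in WT, 27631 ± 7452 in HO (84.2% of the WT mean) and 34318 ± 4849 in DHO, with overlap between all groups. In HO against WT 1 of 13 was called lower, ND3 of complex I (-0.57, limma adjusted p = 0.0443), and none on the median-of-ratios scale, where their median turned from -0.26 to 0.06. ND1 differed by -0.43 without a call (adjusted p = 0.0866), as did CYTB, the complex III subunit that carries electrons, by -0.40 (adjusted p = 0.0696), and COX1, the catalytic subunit of complex IV, by -0.17 (adjusted p = 0.376). In DHO against HO, ND1 (0.59, adjusted p = 0.0243) and CYTB (0.50, adjusted p = 0.0258) were called higher, but neither was on the median-of-ratios scale or without HO 2, HO 4 and DHO 1. The spread within groups was wide: the difference of -1.12 for ATP6 came with an SE of 0.52 (adjusted p = 0.0767). Levels differed widely between these genes. ND3 and ATP6 had WT means of 22.69 and 75.45 FPKM, against 13855 for COX1, 6188 for CYTB and 5962 for ND1. Why some rows were so much lower was not tested, and their values are uncertain. Whether nuclear and mitochondrial genes changed by different amounts was not tested.

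Other nuclear genes of the mitochondrion are given by counts. Of 78 mitochondrial ribosomal proteins, which translate the mitochondrial messages, 76 were called lower in HO and 78 higher in DHO than in HO, with medians of -0.75 and 0.88. Of 37 assembly factors outside the rule, 33 were called lower in HO and 1 higher. Coa6, needed to load copper into complex IV, changed by -1.39 (SE 0.13), and the gene that rose was Higd1a, a small inner membrane protein known for its induction in low oxygen (1.08, SE 0.21, limma adjusted p = 0.000638). Of 22 import and inner membrane genes 17 were called lower, among them Hspd1, the matrix chaperonin (-1.47, SE 0.21). Of 17 citric acid cycle genes 12 were called lower, and Cs, citrate synthase, was not (0.00, SE 0.17, adjusted p = 0.989). On the median-of-ratios scale the numbers called lower were 53 of 78, 22 of 37, 15 of 22 and 9 of 17 in the same order. Without HO 2, HO 4 and DHO 1 they were 71, 28, 17 and 11. Of all genes tested 42.9% were called lower in HO, 23.3% on the median-of-ratios scale and 35.6% without these libraries.

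Electrons leave complex III through cytochrome c1, encoded by Cyc1, and reach complex IV on cytochrome c, encoded by Cycs. Cyc1 fell from 196 ± 13.2 FPKM in WT to 115 ± 39.0 in HO (-0.84, SE 0.19, limma adjusted p = 0.00223). This call was lost on the median-of-ratios scale. Cycs, which also serves as a signal in apoptosis when released, stood at 122 ± 10.7 in WT and 125 ± 19.3 in HO (0.03, SE 0.11, adjusted p = 0.845).

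Among 16 tested regulators of mitochondrial biogenesis, 9 were called lower in HO, where 42.9% of all genes tested were. On the median-of-ratios scale 8 were called lower and 1 higher, where 23.3% and 24.7% of all genes were. Among the 9 were Mterf4, Ssbp1, Tfb2m and Twnk, which act on mitochondrial DNA or its transcription. Tfam, which packages mitochondrial DNA and starts its transcription, fell from 9.87 ± 1.13 to 4.13 ± 0.573 FPKM (-1.08, SE 0.11, limma adjusted p = 3.91e-06). Polrmt, the mitochondrial RNA polymerase, changed by -0.86 (adjusted p = 0.000143) and Polg2, a subunit of the mitochondrial DNA polymerase, by -0.86. Of the nuclear factors, Ppargc1b (-0.62, adjusted p = 0.000447) and Esrra, an estrogen-related receptor whose motif was among those searched (-0.50, adjusted p = 0.0225), were called. The factors of the other 3 motifs searched in the promoters were not called: the difference was -0.16 for Nrf1 (adjusted p = 0.149), -0.16 for Gabpa, the DNA-binding part of GABP (adjusted p = 0.232), and -0.28 for Yy1 (adjusted p = 0.0601). Ppargc1a, a coactivator at 1.12 ± 0.152 FPKM in WT, was at -0.11 (adjusted p = 0.551).

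Glycolysis, which makes ATP without oxygen, did not move one way. Of its 18 genes 6 were called lower in HO and 4 higher, where 42.9% and 12.4% of all genes tested were. On the median-of-ratios scale 1 was called lower and 7 higher. Hk2, an inducible hexokinase, rose by 1.68 (SE 0.36, limma adjusted p = 0.00131), and Hk1 and Pkm rose by 0.69 and 0.59. Pgam1, Gapdh and Pfkl fell by 0.92, 0.77 and 0.64. In DHO against HO 7 were called higher and 4 lower, with Hk2 at -2.05 (SE 0.36, adjusted p = 0.000267). With HO 2, HO 4 and DHO 1 left out, 3 of the 18 were called lower and 2 higher in HO, with a median of 0.03, and 3 higher and 3 lower in DHO against HO.

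**Figure D5:**
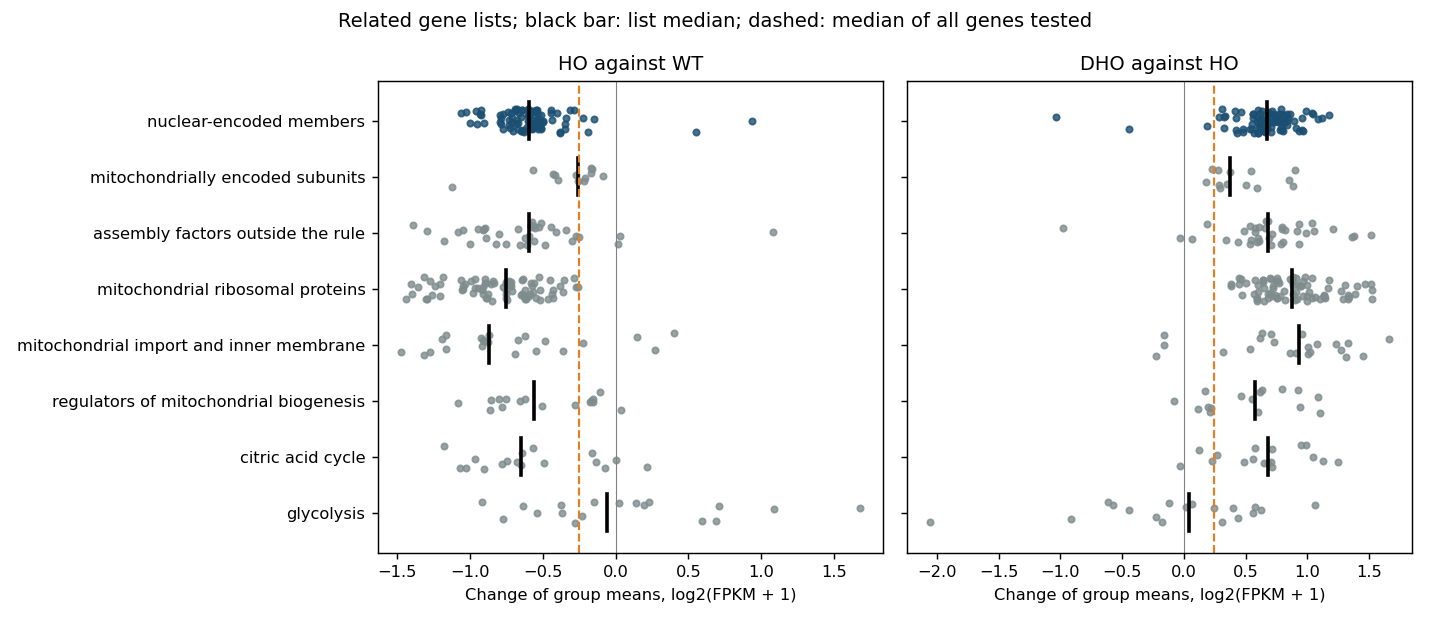
Change of each gene of the 91 tested respiratory genes and of 7 related gene lists on the log2(FPKM + 1) scale, for both comparisons that use the HO libraries; black bars are list medians and dashed lines the median of all genes tested. In HO the nuclear mitochondrial lists have medians between -0.87 and -0.56, the mitochondrially encoded subunits -0.26 and glycolysis -0.06.

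Markers of other cells differed in direction in HO, where 42.9% of all genes tested were called lower and 12.4% higher. Of 10 proliferation genes 10 were called lower, with a summed level of 134 to 215 FPKM in WT, 47.7 to 71.8 in HO and 148 to 236 in DHO. Of 5 crypt stem cell genes 3 were called lower, at 72.6 to 233 FPKM in WT and 20.6 to 44.2 in HO. Of 5 Paneth cell genes 5 were called lower, at 2701 to 13892 FPKM in WT and 1007 to 4479 in HO. Of 10 enterocyte genes 5 were called higher and none lower, at 12243 to 15526 FPKM in WT, 17957 to 43778 in HO and 14546 to 32323 in DHO. The highest libraries for this list were HO 1, DHO 4 and DHO 3, those with proximal transcripts. Of 7 smooth muscle genes 4 were called higher, at 146 to 1052 FPKM in WT and 363 to 1642 in HO, as were 4 of 5 genes of pericytes and endothelium, at 24.4 to 99.6 and 71.9 to 254. Of 3 tested genes of enteric neurons all 3 were called higher, at 4.25 to 29.7 and 17 to 59, as were both tested neutrophil genes, at 0.202 to 1.06 and 2.17 to 29.0 for the list. These 2 genes were tested mainly because of their level in HO, so their calls only describe it, and the neutrophil list was at 0 in DHO 1. Without HO 2, HO 4 and DHO 1 the numbers called higher were 4 of 10 for enterocytes, 0 of 7 for smooth muscle, 2 of 5 for pericytes and endothelium, 1 of 3 for enteric neurons and 2 of 2 for neutrophils. The numbers called lower were as before for proliferation, crypt stem cell and Paneth cell genes. The part of these cells in the change of the respiratory genes was not tested.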

How the data were processed

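Total RNA of whole ileum from 15 mice was sequenced as bulk libraries, 5 per group by the genotype label. The authors deposited 1 table of FPKM values for 25329 gene symbols, made from reads counted per gene and divided by gene length and library reads. The header names no unit; FPKM was read from the values, which for a given gene all come in steps of what 1 read is worth. Whole reads (tolerance 0.02 of a read) were recovered for 24836 of 24836 rows above 0. The tools named are fastp, HISAT2 and HTSeq, with the mm10 build, per the submitters' processing notes; versions, settings, strand setting and annotation are not given in the sources used here. Reads of near-identical copies and pseudogenes may therefore be shared or lost.

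The test took the 11332 genes that reached 1 FPKM in 5 or more libraries, a filter that lets a gene pass through 1 group alone. Changes, SE and two-sided p-values came from limma-trend (limma 3.58.1, R 4.3.3) with robust moderation on log2(FPKM + 1), in 1 fit over all 15 libraries, with Benjamini-Hochberg adjustment over all genes tested and calls under 0.05. A pseudocount of 1 draws changes of low genes toward 0. The labels name no culture, litter, sex or batch, so p-values measure the spread between these libraries. The closest pair of libraries, DHO 3 and DHO 4, still differed by a chi-square of 12.6 per gene and was counted as 2 libraries.

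The genes and lists were chosen with earlier results of these data known. Named genes were core subunits, paralogs and isoforms, and in each comparison up to 5 called genes per direction with the smallest p, up to 3 with the largest changes and those called against the majority; other genes named were chosen after their values were seen. Alternatives were another pseudocount and filters, quantile, TPM and median-of-ratios scaling, limma-voom on recovered reads, 2-group fits, and fits without each library or without either set of 3. Scripts were tested on simulated data. Results of single genes within the naming rule and the lists that are not named are not reported here.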

Additional observations from a re-analysis of the deposited data

Results flagged for a closer look

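The 48 named genes were looked at in each of the 3 groups, 144 groups of 5 libraries in all, for a library far from the other 4 by Dixon's criterion, which chance meets in about 1 in 20 groups. There were 3 such cases, all in genes below the level needed for the test. Cox4i2, the lung isoform of subunit IV, was at 0.239 FPKM in DHO 3 and at 0.652 to 0.818 in the other DHO libraries. Cox6a2, the heart and muscle isoform of subunit VIa, was at 0.374 FPKM in HO 3 and at 0 to 0.0386 in the other HO libraries. The same gene was at 0.189 FPKM in DHO 4 and at 0 to 0.0389 in the other DHO libraries.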

How the results depend on the processing

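Scaling mattered most. In HO against WT the 85 genes called lower became 28 with median-of-ratios scaling of FPKM and 30 with limma-voom under median-of-ratios factors, and the median change of -0.59 became -0.28 and -0.33. Under limma-voom with these factors that was 33% of the 91 genes, against 25.4% of all genes. The 2 called higher became 1 without a filter and 1 in a fit of only both groups. Without HO 2, HO 4 and DHO 1 they became 0, with a median of -0.41. In DHO against HO the 87 called higher became 46 and 54 under the same scalings, with medians of 0.36 and 0.44, and 0.51 under quantile normalization. With limma-voom under these factors 59.3% of the 91 genes were called higher, against 27.8% of all genes. The 1 called lower became 2 under each of these 3 scalings and 0 without HO 2, HO 4 and DHO 1. Leaving out each library in turn gave 77 to 86 lower, 1 to 2 higher and medians from -0.67 to -0.49 in HO against WT, and 84 to 89 higher, 1 to 2 lower and medians from 0.57 to 0.76 in DHO against HO. Of the 85 genes called lower 28 kept the call in every setting, and of the 87 called higher 44 did. Over the 45 of the 48 named genes that were tested 3510 alternative values were computed: 3335 stayed on the same side of the threshold, 164 lost the call, 11 gained one and 0 called values changed sign. The cause of these shifts was not tested. Levels under about 1 FPKM are limited by few reads. No paired analysis was possible because the labels give no replicate numbers that groups share.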
